A study of Mus musculus with 12 samples.

Results

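Aminoacyl-tRNA synthetases attach each amino acid to its transfer RNA, and 35 genes of this family were followed in RNA of mouse cardiac stem cell cultures. The members were taken by gene symbol, 20 genes for cytosolic enzymes and 15 genes for mitochondrial enzymes, out of 34174 genes in the deposited table. All 35 were found and all 35 passed the filter on low values that left 24151 genes for testing. In the cultures labelled c-kitCre, 25 of the 35 were lower than in the cultures labelled wild-type, 1 was higher and 9 did not pass the test. The cytosolic genes summed to 48.2% of the wild-type level. The 15 mitochondrial genes summed to 540% of it because of Lars2, whose value is uncertain, and to 47.3% when Lars2 was left out after its value had been seen.

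The cells were isolated from hearts of C57BL/6 mice, either c-kitCre mice, which carry the Cre recombinase in the Kit locus, or wild-type mice. The labels number 3 cultures of each genotype and give every culture 2 libraries, 12 in all, and the deposited tables give 1 value for each culture, so that n = 3 per group. All cultures grew without a treatment on gelatin in medium with 10% serum at 21% oxygen, and age and sex are not given. Whether the cultures of a genotype came from separate animals is not said, and the authors' comparison is named a clone analysis. The p-values therefore rest on the spread among these cultures and cannot be carried over to the genotypes.

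Summed raw values were 22371439 to 35963488 in the c-kitCre cultures and 32392712 to 35043499 in the wild-type cultures, and levels are given as scaled reads, the raw value times the scale factor of the authors' normalized values. Kit, the receptor gene that carries Cre, had 1732, 1738 and 1603 scaled reads in the cultures labelled c-kitCre and 3.38, 1.55 and 1.17 in those labelled wild-type (exact two-sided permutation p = 0.1, the smallest that 3 against 3 allows). That order goes against an insertion into Kit, so each direction below rests on the labels. Of 10 progenitor markers 7 were higher and 1 lower in the c-kitCre cultures, with summed levels of 7222 to 8025 scaled reads against 4538 to 5306 in the wild-type cultures. Other cell types' markers also moved with the groups. The 7 fibroblast and stromal markers summed to 300778 to 445600 scaled reads in c-kitCre cultures and to 119590 to 188178 in wild-type cultures (6 of 7 higher). The 4 smooth muscle markers summed to 1590 to 3775 against 85.7 to 137 (3 of 4 higher). The 6 cardiomyocyte markers summed to 155 to 186 against 1480 to 3624, mostly Tnnt2 (1 of 6 higher and 1 lower). The 6 blood and mast cell markers summed to 167 to 345 against 134 to 142, with Cpa3 at 0 in every culture (2 of 6 passed the filter and neither was called). The 5 endothelial markers summed to 62.5 to 71.0 against 29.2 to 74.3 (2 of 5 higher). The part of these markers in the synthetase results was not tested, and in bulk RNA fewer cells of a type and less RNA per cell cannot be told apart.

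As background, each synthetase recognises 1 amino acid and the transfer RNAs that decode it, and joins them at the cost of ATP before the ribosome can use them. Class I and class II enzymes differ in the fold of their catalytic domain. In animal cells several cytosolic synthetases are held in a multisynthetase complex by the scaffold proteins Aimp1, Aimp2 and Eef1e1, whereas the others act on their own. Mitochondria translate their own messengers with separate enzymes encoded in the nucleus, except that Gars and Kars supply both compartments. Transcription of many cytosolic synthetase genes is known to respond to amino acid shortage through the factor Atf4.

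The question was which of these RNAs differ between the cultures labelled c-kitCre and those labelled wild-type. Among all genes tested, 35.5% passed the threshold (limma, Benjamini-Hochberg adjusted p under 0.05), 19.3% lower and 16.2% higher in c-kitCre cultures. The members had 25 of 35 lower, 71.4%, and a median log2 difference of -1.16, where the median of all genes was 0.04. Most members are abundant, and among the 6005 genes that averaged 1000 scaled reads or more 32.6% were lower, with a median of -0.19. The values of the groups did not overlap for 31 members (88.6%, beside 53.2% of all genes tested and 64.3% of those 6005 genes). In 28 of these every c-kitCre culture was lower (27.0% of all genes, 2458 of the 6005). In the other 3 every c-kitCre culture was higher (26.1% of all genes, 1402 of the 6005). At least 2-fold lower among the called were 17 of the 35 members. The same held for 3170 of the 24151 genes tested and for 1107 of the 6005 genes averaging 1000 or more. Without wild-type culture 2 the count of lower members was 17 and without wild-type culture 3 it was 19.

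**Figure D1:**
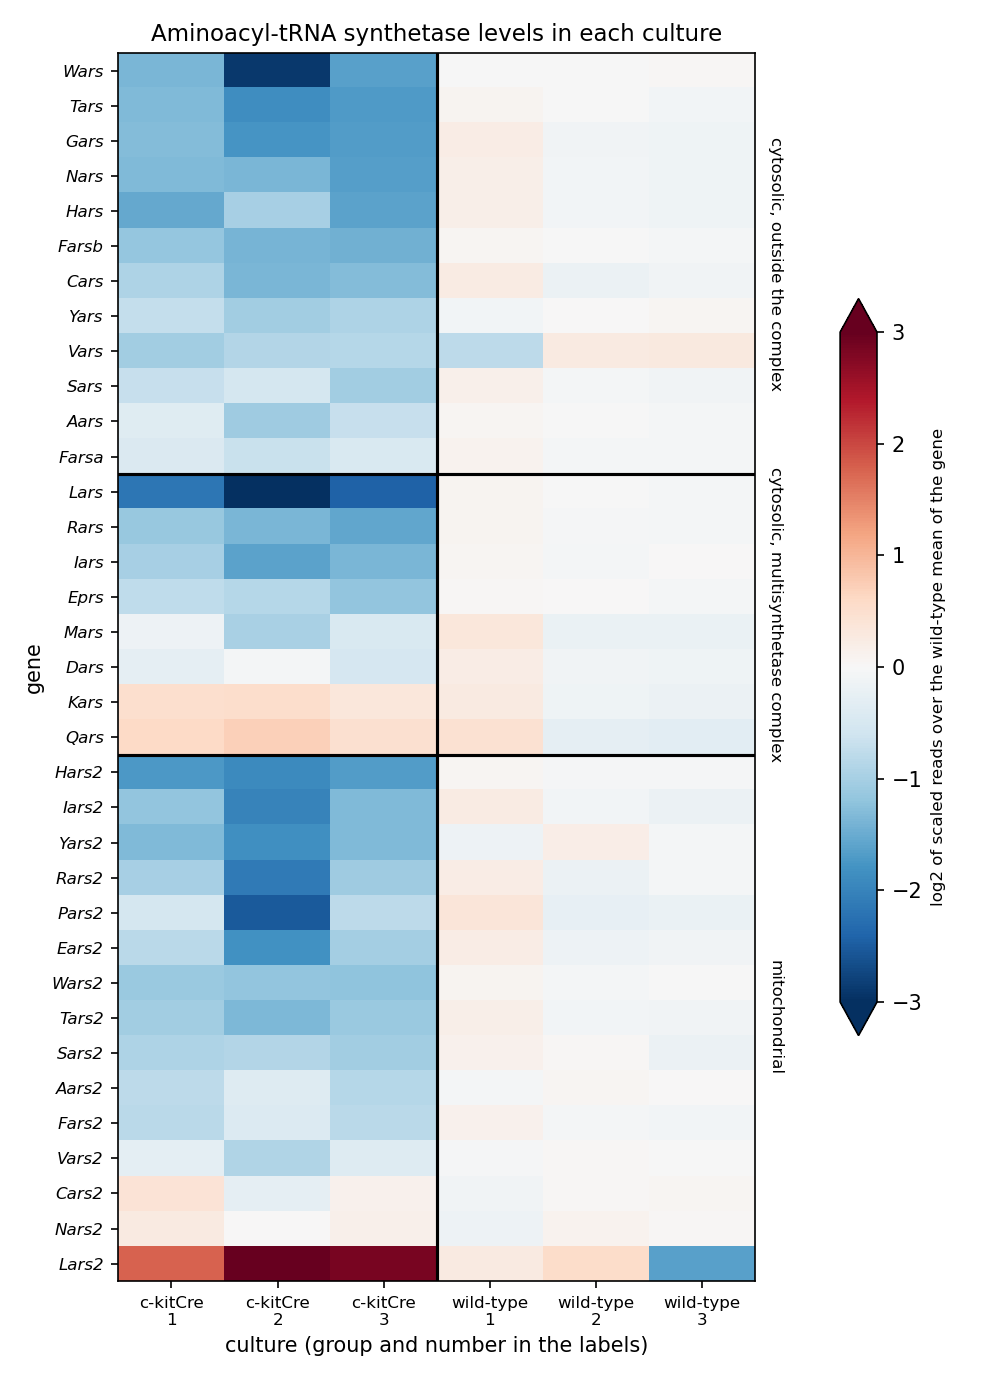
Level of each of the 35 synthetase genes (rows, in 3 groups) in each culture (columns, 3 c-kitCre cultures left of 3 wild-type cultures), as log2 of scaled reads over the gene's wild-type mean, with colours ending at -3 and 3. Most rows are blue in all 3 c-kitCre columns, Lars and Wars are darkest in c-kitCre culture 2, and Lars2 is red in the c-kitCre columns and blue in wild-type culture 3.

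The 12 cytosolic genes outside the multisynthetase complex were lower in c-kitCre cultures in 11 cases (91.7%, beside 32.6% of genes averaging 1000 scaled reads or more). The groups did not overlap for any of the 12 (100%, beside 64.3% of genes averaging 1000 scaled reads or more). The median log2 difference was -1.26. Their summed level was 79737 ± 8565 scaled reads in c-kitCre cultures and 176150 ± 7668 in wild-type cultures (SD, n = 3 each), 45.3% of wild-type. Wars, the tryptophanyl-tRNA synthetase, had 2223, 777 and 1853 scaled reads in c-kitCre cultures, against 5646, 5672 and 5894 in wild-type cultures. All 3 c-kitCre values lay below the wild-type values, and c-kitCre culture 2 lay far below the other two. The log2 difference of Wars was -1.96 ± 0.39 (SE, limma, adjusted p = 0.0099). Tars, the threonyl-tRNA synthetase, had 7946, 5465 and 6129 scaled reads in c-kitCre cultures, against 21158, 19904 and 19014 in wild-type cultures. Its groups were well apart, with a log2 difference of -1.64 ± 0.18 (SE, adjusted p = 0.0011). Gars, which makes the glycyl-tRNA synthetase of cytosol and mitochondria, had 11112, 8005 and 8617 scaled reads in c-kitCre cultures, against 31759, 25435 and 24932 in wild-type cultures. Every c-kitCre value of Gars was under every wild-type value, and the log2 difference was -1.57 ± 0.19 (SE, adjusted p = 0.0017).

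Nars, for asparagine, averaged 10913 ± 1298 scaled reads in c-kitCre cultures and 29724 ± 3386 in wild-type cultures (SD, n = 3 each), a log2 difference of -1.45 (adjusted p = 0.0015). Hars, for histidine, averaged 3296 ± 798 in c-kitCre cultures and 8438 ± 1020 in wild-type cultures, a log2 difference of -1.38 (adjusted p = 0.0031). Cars, for cysteine, averaged 3124 ± 542 in c-kitCre cultures and 7057 ± 1177 in wild-type cultures, a log2 difference of -1.18 (adjusted p = 0.004). These 3 genes stood at 36.7%, 38.5% and 44.2% of wild-type. The phenylalanyl enzyme is built of 2 kinds of subunit, and their genes fell by different amounts. Farsb, for its beta subunit, averaged 2184 ± 237 scaled reads in c-kitCre cultures and 5510 ± 239 in wild-type cultures, a log2 difference of -1.34 ± 0.12 (SE, adjusted p = 0.00056). Farsa, for its alpha subunit, averaged 2328 ± 201 in c-kitCre cultures and 3345 ± 223 in wild-type cultures, a log2 difference of -0.52 ± 0.12 (SE, adjusted p = 0.016). The difference between the subunits was not tested, and 9.47% of the exon bases of Farsb overlap Sgpp2 on the other strand.

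Yars, Sars and Aars, for tyrosine, serine and alanine, were lower by smaller amounts. Yars averaged 3121 ± 363 scaled reads in c-kitCre cultures and 5766 ± 274 in wild-type cultures, with a log2 difference of -0.89 (adjusted p = 0.0029). Sars had 12072, 13360 and 9445 scaled reads in c-kitCre cultures, against 21367, 18633 and 18121 in wild-type cultures, with a log2 difference of -0.75 (adjusted p = 0.022). Aars had 21603, 13250 and 17269 in c-kitCre cultures, against 29242, 27592 and 27056 in wild-type cultures, with a log2 difference of -0.71 ± 0.22 (SE, adjusted p = 0.047). None of these groups overlapped, but the calls of Sars and Aars are near the threshold, and 15.1% of the exon bases of Aars overlap other genes, mainly Exosc6 on the same strand. Vars, for valine, had 7721, 8653 and 8810 scaled reads in c-kitCre cultures, against 9241, 18980 and 19287 in wild-type cultures. Wild-type culture 1 lay close to the c-kitCre values, the groups still did not overlap, and Vars was the gene outside the complex that did not pass (log2 difference -0.84 ± 0.31, SE, adjusted p = 0.08). Without wild-type culture 1 Vars passed (adjusted p = 0.0022, in a range of 0.0022 to 0.24 over all alternatives). The calls were lost for Farsa without wild-type culture 2 (adjusted p = 0.054), for Sars without wild-type culture 2 or 3 or c-kitCre culture 1 or 3 (adjusted p = 0.051 to 0.0742), and for Aars without any 1 culture except c-kitCre culture 1 (adjusted p = 0.0715 to 0.135). Median centring over genes averaging 50 scaled reads or more also ended these 3 calls (adjusted p = 0.0541 to 0.0873), as did quantile normalization for Farsa (adjusted p = 0.0564) and the unfiltered fit and scaling to the summed raw values for Aars (adjusted p = 0.087 and 0.075).

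**Figure D2:**
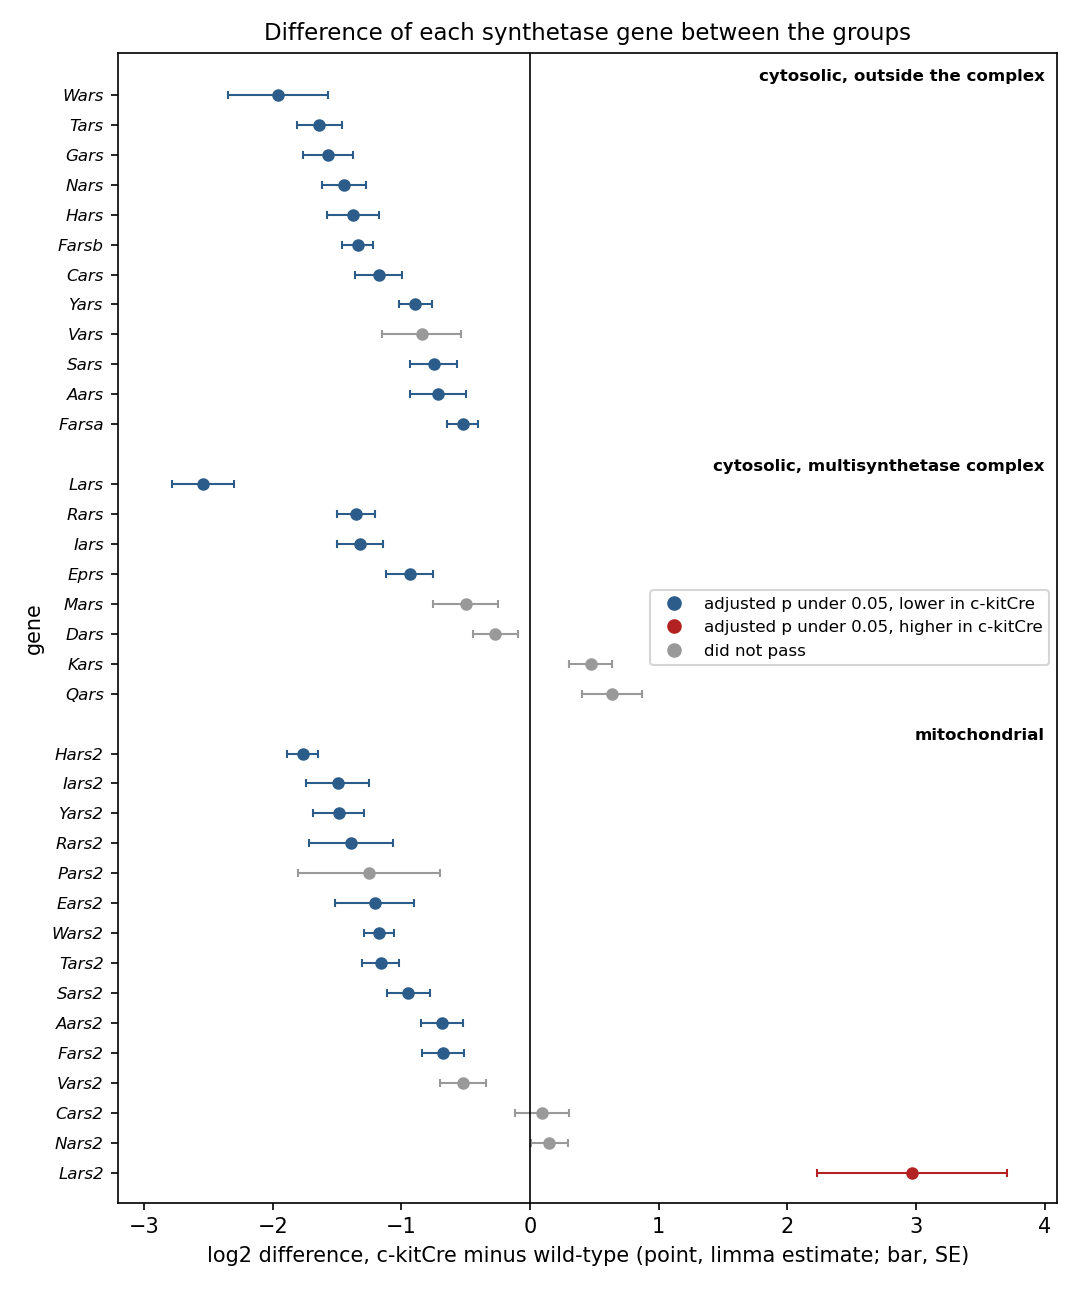
Log2 difference, c-kitCre minus wild-type, of each synthetase gene (points, limma estimate; bars, SE), in 3 groups ordered by difference. Blue points are lower and the red point, Lars2, is higher in c-kitCre cultures at an adjusted p under 0.05, and 9 grey points did not pass.

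Of the 8 synthetases of the multisynthetase complex 4 passed the test, all as lower (50%, beside 32.6% of genes averaging 1000 scaled reads or more). Lars, Rars, Iars and Eprs were lower in c-kitCre cultures, and Mars, Dars, Kars and Qars did not pass. The log2 difference was below 0 in 6 of the 8. The median log2 difference was -0.72, and the summed level was 60050 ± 6343 scaled reads in c-kitCre cultures and 114137 ± 7898 in wild-type cultures (SD, n = 3 each), 52.6% of wild-type. Lars, the cytosolic leucyl-tRNA synthetase (mm10 chromosome 18, 42202298 to 42262194), had 6879, 3778 and 5723 scaled reads in c-kitCre cultures, against 32433, 30641 and 29517 in wild-type cultures. The wild-type cultures were close to each other and every c-kitCre culture was far below them. The log2 difference of -2.54 ± 0.24 (SE, limma, adjusted p = 0.00066) was the largest fall among the 35 genes, with Lars at 17.2% of its wild-type level. Rars, for arginine, averaged 4783 ± 699 scaled reads in c-kitCre cultures and 12158 ± 656 in wild-type cultures, a log2 difference of -1.35 (adjusted p = 0.0011). Iars, for isoleucine, averaged 4317 ± 951 in c-kitCre cultures and 10636 ± 424 in wild-type cultures, a log2 difference of -1.32 (adjusted p = 0.0025). Eprs, a single protein that charges both glutamate and proline, averaged 19431 ± 2806 in c-kitCre cultures and 36893 ± 1134 in wild-type cultures, a log2 difference of -0.94 (adjusted p = 0.0098). The call of Eprs was lost without wild-type culture 2 (adjusted p = 0.0502).

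Kars and Qars had higher values in c-kitCre cultures without passing. Kars, the lysyl-tRNA synthetase of both compartments, had 12875, 13009 and 11362 scaled reads in c-kitCre cultures, against 10879, 8234 and 7986 in wild-type cultures. Qars, for glutamine, had 4670, 5073 and 4302 scaled reads in c-kitCre cultures, against 4272, 2556 and 2488 in wild-type cultures. In both genes wild-type culture 1 was the highest of its group and came close to the c-kitCre values, and the groups did not overlap. The log2 differences were 0.47 ± 0.17 for Kars (SE, adjusted p = 0.076) and 0.64 ± 0.23 for Qars (SE, adjusted p = 0.079). Without wild-type culture 1 Kars and Qars passed as higher (adjusted p = 0.0135 and 0.00379), in ranges over all alternatives of 0.0124 to 0.636 for Kars and 0.00379 to 0.369 for Qars. Dars, for aspartate, had 5504, 6468 and 4721 scaled reads in c-kitCre cultures, against 7752, 6239 and 6074 in wild-type cultures, and the groups overlapped (log2 difference -0.27 ± 0.17, SE, adjusted p = 0.27). Mars, for methionine, had 4259, 2443 and 3494 in c-kitCre cultures, against 5989, 4166 and 4123 in wild-type cultures, again with overlap (log2 difference -0.50 ± 0.25, SE, adjusted p = 0.18). The 3 scaffold genes of the complex had 1 call. Eef1e1 averaged 451 ± 21.3 scaled reads in c-kitCre cultures and 1375 ± 352 in wild-type cultures, a log2 difference of -1.58 (adjusted p = 0.0017). Aimp1 had a log2 difference of -0.25 (adjusted p = 0.32) and Aimp2 of -0.44 (adjusted p = 0.061), so neither passed.

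Of the 15 mitochondrial synthetases, 10 were lower in c-kitCre cultures (66.7%, beside 29.2% of genes averaging 50 scaled reads or more). Lars2 was higher and 4 did not pass. The median log2 difference was -1.16, or -1.17 without Lars2. All 15 genes summed to 316747 ± 167711 scaled reads in c-kitCre cultures and 58695 ± 26166 in wild-type cultures (SD, n = 3 each), most of it Lars2. The 14 genes other than Lars2 summed to 7738 ± 1255 scaled reads in c-kitCre cultures and 16373 ± 1413 in wild-type cultures (SD, n = 3 each). Hars2, the mitochondrial histidyl-tRNA synthetase, had 409, 363 and 426 scaled reads in c-kitCre cultures, against 1421, 1323 and 1327 in wild-type cultures. Both groups were tight and far apart, and Hars2 had the smallest adjusted p of the members (log2 difference -1.77 ± 0.12, SE, limma, adjusted p = 0.00023). Hars2 and the cytosolic gene Hars lie head to head on chromosome 18, on opposite strands, with annotated start sites 197 bases apart and 195 bases of shared exon sequence, so reads from that stretch cannot be assigned where strand is unknown. Iars2 averaged 1985 ± 542 scaled reads in c-kitCre cultures and 5483 ± 878 in wild-type cultures, a log2 difference of -1.49 (adjusted p = 0.0049), but 24.2% of its exon bases overlap genes on the other strand. Yars2 averaged 278 ± 54.1 in c-kitCre cultures and 772 ± 100 in wild-type cultures, a log2 difference of -1.49 (adjusted p = 0.0024). Wars2 averaged 356 ± 12.5 in c-kitCre cultures and 805 ± 40.1 in wild-type cultures, a log2 difference of -1.18 (adjusted p = 0.00083).

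Tars2 averaged 1040 ± 114 scaled reads in c-kitCre cultures and 2327 ± 275 in wild-type cultures, a log2 difference of -1.16 (adjusted p = 0.0017). Sars2 averaged 171 ± 10.1 in c-kitCre cultures and 330 ± 34.1 in wild-type cultures, a log2 difference of -0.95 (adjusted p = 0.007). Rars2 had 464, 212 and 442 scaled reads in c-kitCre cultures, against 1075, 823 and 884 in wild-type cultures, a log2 difference of -1.39 (adjusted p = 0.019). As with Wars, the value of Rars2 in c-kitCre culture 2 was well under those of the other two c-kitCre cultures. Ears2, which charges glutamate and also starts the indirect route to glutaminyl-tRNA in mitochondria, had 222, 109 and 189 in c-kitCre cultures, against 450, 347 and 361 in wild-type cultures (log2 difference -1.21, adjusted p = 0.024). Aars2 had 392, 516 and 373 scaled reads in c-kitCre cultures, against 655, 704 and 679 in wild-type cultures (log2 difference -0.68, adjusted p = 0.02). Fars2 had 341, 448 and 343 in c-kitCre cultures, against 655, 578 and 564 in wild-type cultures (log2 difference -0.68, adjusted p = 0.021). Of the exon bases of Fars2, 10.7% overlap genes on the other strand. In Aars2 and Fars2 it was c-kitCre culture 2 that had the highest c-kitCre value. No groups overlapped among these 6 genes, beside 64.1% without overlap among all genes averaging 50 scaled reads or more.

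Pars2, for proline, did not pass, and its c-kitCre culture 2 lay far from the other two. It had 225, 56.2 and 188 scaled reads in c-kitCre cultures, against 420, 273 and 281 in wild-type cultures (log2 difference -1.25 ± 0.55, SE, adjusted p = 0.13). Without c-kitCre culture 2 the log2 difference of Pars2 was -0.63 (adjusted p = 0.135). Vars2 had 1296, 849 and 1216 in c-kitCre cultures, against 1541, 1624 and 1573 in wild-type cultures (log2 difference -0.52 ± 0.18, SE, adjusted p = 0.069). Neither gene's groups overlapped. Cars2 and Nars2 were the mitochondrial genes with overlapping groups. Cars2 had 469, 290 and 381 scaled reads in c-kitCre cultures, against 325, 359 and 368 in wild-type cultures (log2 difference 0.09 ± 0.21, SE, adjusted p = 0.76). Nars2 had 542, 458 and 506 in c-kitCre cultures, against 406, 489 and 465 in wild-type cultures (log2 difference 0.15 ± 0.14, SE, adjusted p = 0.46). Without wild-type culture 2 or without wild-type culture 3 the number of lower mitochondrial genes was 6. The calls lost were those of Aars2, Ears2, Fars2 and Rars2 in both cases (adjusted p = 0.0607 to 0.0809). Each was also lost without other single cultures (Ears2 and Rars2 without wild-type culture 1, Aars2 and Fars2 without c-kitCre culture 1 or 3, Ears2 without c-kitCre culture 3; adjusted p = 0.0612 to 0.0691), and Vars2 passed without c-kitCre culture 2 (adjusted p = 0.023). The same centring and quantile normalization ended the calls of Aars2 and Fars2, and the unfiltered fit those of Ears2 and Rars2 (adjusted p = 0.061 to 0.0855).

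Lars2, the mitochondrial leucyl-tRNA synthetase (mm10 chromosome 9, 123366927 to 123462666), was the exception. It had 143364, 481041 and 302624 scaled reads in c-kitCre cultures, against 50878, 62412 and 13676 in wild-type cultures. The groups did not overlap, but values within the c-kitCre group and within the wild-type group differed several-fold. The log2 difference was 2.97 ± 0.74 (SE, limma, adjusted p = 0.023), a 7.83-fold higher level in c-kitCre cultures, and was 2.29 without wild-type culture 3. The call was lost without wild-type culture 2 or 3 or c-kitCre culture 2 or 3 (adjusted p = 0.0505 to 0.0951) and in the unfiltered fit (adjusted p = 0.086), and the range over all alternatives was 0.0046 to 0.0951. The 3′ untranslated region of Lars2 holds 72 bases that are 98.6% identical to Gm15564, a non-coding gene on chromosome 16, and how the authors counted reads that fit several places is not given in the sources used here. Gm15564 had 1589, 4868 and 3662 scaled reads in c-kitCre cultures, against 551, 803 and 159 in wild-type cultures. The ratio of Lars2 to Gm15564 was 90.2, 98.8 and 82.6 in c-kitCre cultures and 92.3, 77.7 and 86.1 in wild-type cultures, so the counts of these genes moved together through all 6 cultures. The value of Lars2 is therefore uncertain, and the part of shared reads in it was not tested.

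**Figure D3:**
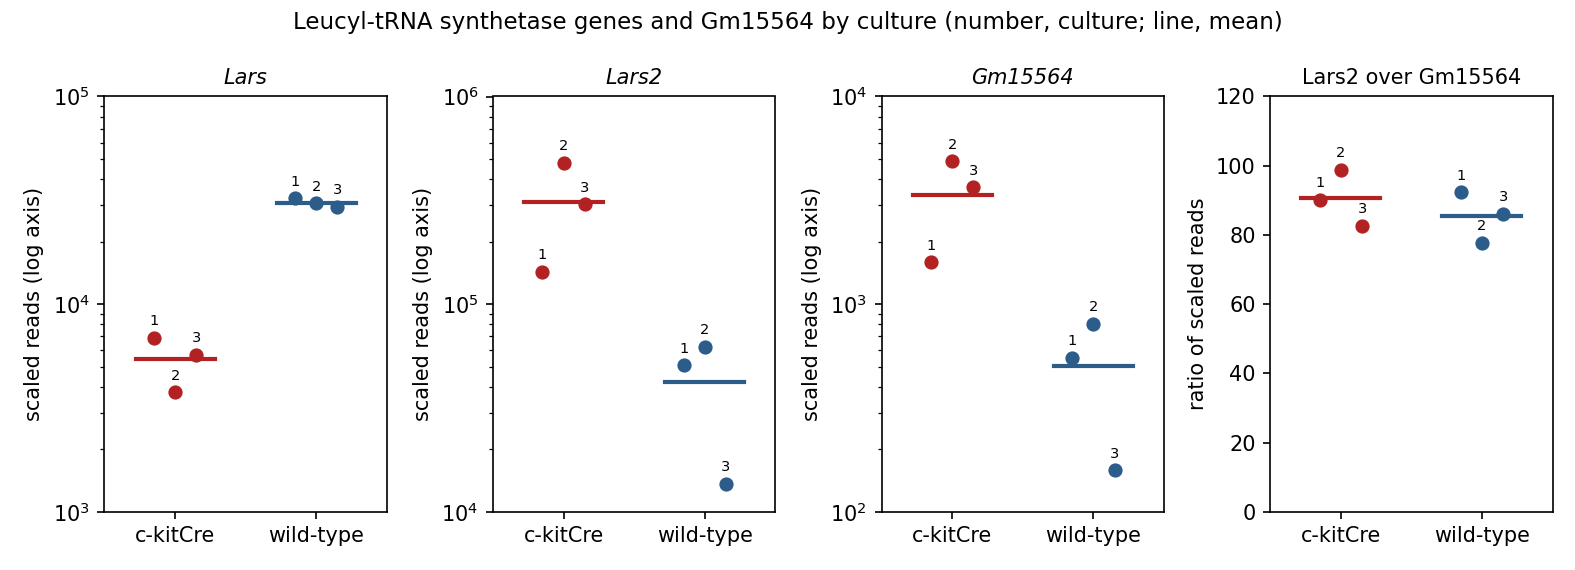
Scaled reads of Lars, Lars2 and Gm15564 (log axes) and the ratio of Lars2 to Gm15564 (linear axis), with c-kitCre cultures left of wild-type cultures; each point is a culture with its number, and lines are group means. Lars is low in c-kitCre cultures, Lars2 and Gm15564 are high in the same cultures in the same order, and the ratio lies between 77.7 and 98.8 in every culture.

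For 12 amino acids both a cytosolic and a mitochondrial member are in the list, and 8 of these pairs were lower on both sides. In 3 pairs, those of cysteine, leucine and asparagine, the cytosolic gene alone was lower. In no pair was the mitochondrial gene alone lower, and for valine neither passed. The size of the change was close in some pairs, at -0.71 for Aars and -0.68 for Aars2 and at -1.35 for Rars and -1.39 for Rars2, and no difference within a pair was tested. Across the 11 pairs without leucine, Pearson's r of the log2 differences was 0.17, a description across genes measured in the same cultures. Other pairs were farther apart, at -1.38 for Hars and -1.77 for Hars2 and at -1.64 for Tars and -1.16 for Tars2. By catalytic class, 11 of 17 class I genes (64.7%) and 13 of 17 class II genes (76.5%) were lower, with median log2 differences of -1.18 and -0.95. Of genes averaging 50 scaled reads or more, 29.2% were lower. Eprs has catalytic domains of both classes and was counted in neither.

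Levels can be set side by side between genes only per length, here scaled reads per kb of annotated exon, merged over all transcripts of a gene. This length exceeds the longest coding transcript unevenly, at 7237 against 1902 bases for Cars2 and 11089 against 3894 for Lars2. The ranks and ranges below therefore depend on the annotation as well as on RNA level. In c-kitCre cultures Lars2 stood at 27866 ± 15234 per kb (SD, n = 3), followed by Gars at 2964 ± 528, Kars at 2781 ± 205, Nars at 2506 ± 298 and Sars at 2261 ± 388. Neighbours among these last 4 differed by less than the larger of their SDs. In wild-type cultures the order was Gars at 8777 ± 1220, Nars at 6825 ± 778, Lars at 5750 ± 274, Lars2 at 3817 ± 2297 and Sars at 3768 ± 339, level with Rars at 3767 ± 203. The place of Lars2 is not fixed, since its SD spans those of its neighbours and its counts are uncertain. Lars was 13th per kb in c-kitCre cultures, at 1017 ± 292, and 3rd in wild-type cultures. Kars was 3rd in c-kitCre cultures and 13th in wild-type cultures, at 2024 ± 359. Mitochondrial genes other than Lars2 ran from 33.6 to 223 per kb in c-kitCre cultures and from 48.4 to 617 in wild-type cultures. In c-kitCre cultures all 14 were below the lowest cytosolic gene, Wars at 469, and in wild-type cultures all but Iars2, at 617, were below the lowest cytosolic gene, Qars at 472.5.

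**Figure D4:**
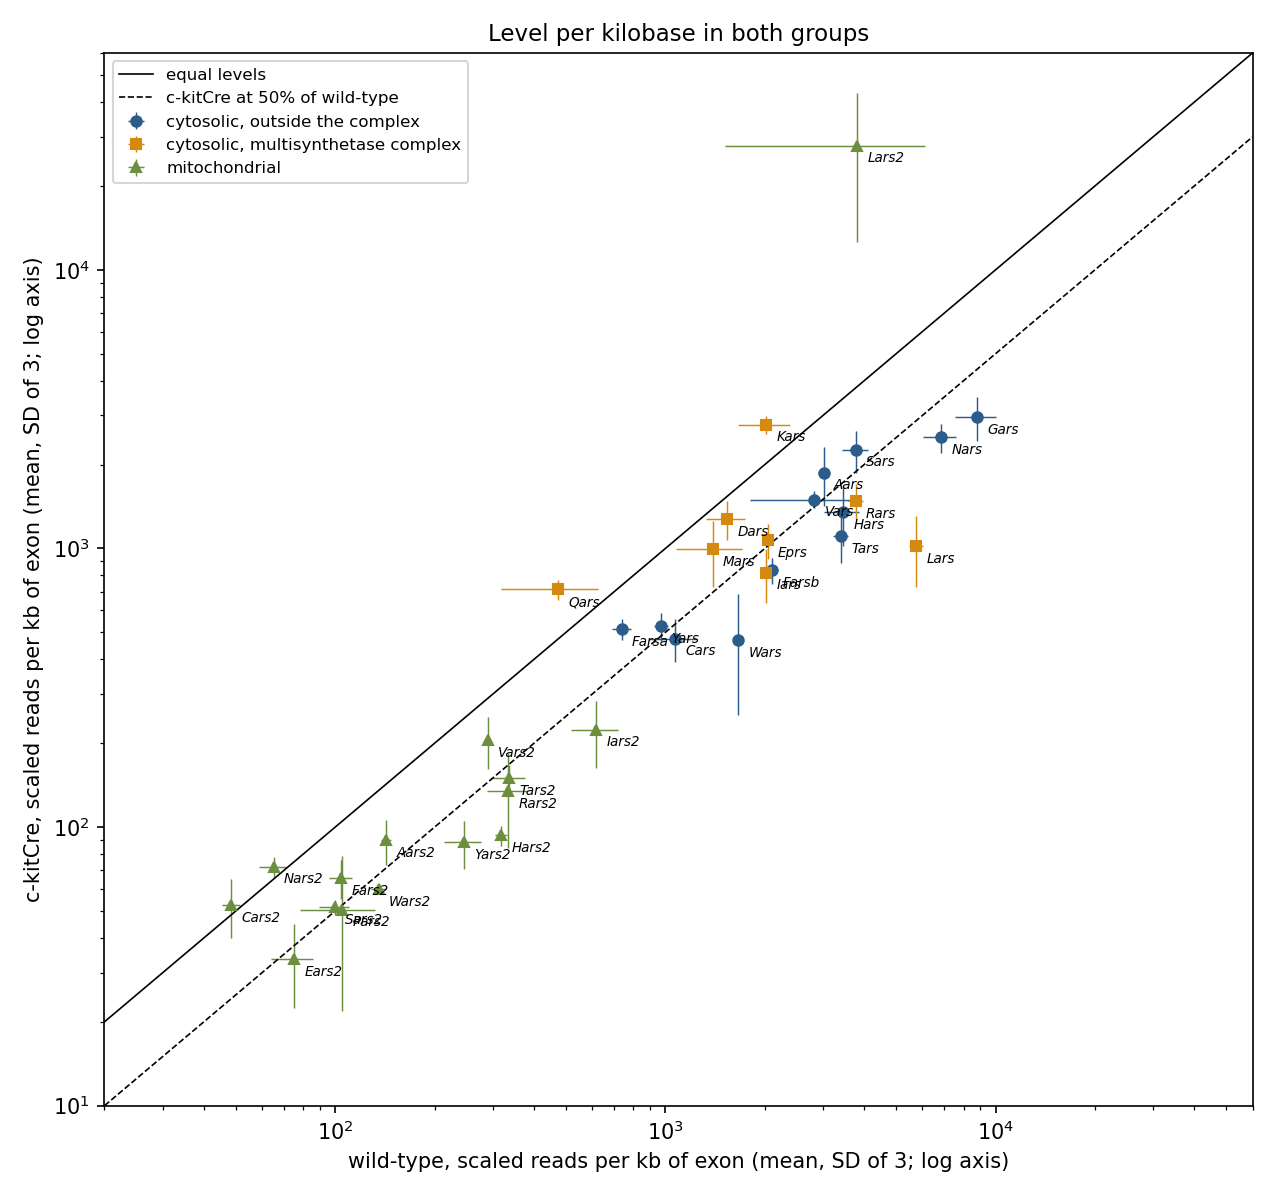
Mean level of each synthetase gene per kb of exon in c-kitCre cultures (vertical axis) against wild-type cultures (horizontal axis), both log axes, with SD bars over 3 cultures. Most genes lie near the dashed line of 50%, Kars, Qars, Cars2 and Nars2 lie above the line of equal levels, Lars lies farthest below it and Lars2 farthest above it.

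The 6 cultures were not equally alike. The median coefficient of variation over the 35 genes was 17.3% in c-kitCre cultures and 9.41% in wild-type cultures. Over all genes tested it was 25.9% and 25.1%. Over genes averaging 50 scaled reads or more it was 17.0% and 17.2%, and over those averaging 1000 or more 14.6% and 15.3%. The lowest c-kitCre value was in culture 2 for 20 of the 35 genes, 57.1%. For all genes tested that share was 39.8%, and for those averaging 50 or 1000 scaled reads or more it was 43.3% and 38.6%. That c-kitCre culture 2 was also the one with the lowest summed raw value. The highest wild-type value was in culture 1 for 26 of the 35, 74.3%, and in all 8 genes of the multisynthetase complex. For all genes tested the share was 48.9%, and for those averaging 50 or 1000 scaled reads or more it was 59.3% and 65.0%. Among the mitochondrial genes, 10 of 15 were lowest in c-kitCre culture 2.

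Promoters were searched for TGATGNAA, the core of the C/EBP-ATF composite element through which Atf4 is known to act, on both strands of the 300 bases from 250 before to 50 after each start site in RefSeq (GRCm38.p6). The element was in 1219 of 27025 genes' promoters, 4.51%. Of the members, 26 had a promoter in that table, 13 cytosolic and 13 mitochondrial. A match lay in 5 of the 13 cytosolic promoters and in 0 of the 13 mitochondrial ones, a description that shows no site in use. The 5 genes, Aars, Gars, Iars, Tars and Yars, were all lower in c-kitCre cultures, and 4 of the windows are shown for that reason. The call of Aars was lost in 9 of the 18 alternatives. Of the matched genes without the element, 4 of 8 cytosolic and 9 of 13 mitochondrial ones were lower too. Of all genes averaging 1000 scaled reads or more 32.6% were lower, and of those averaging 50 or more 29.2%. Each window shown has 30 bases, 5′ to 3′ on the strand of the gene, with the match or its reverse complement in capitals.
Gars, chr6:55037960-55037989, plus strand: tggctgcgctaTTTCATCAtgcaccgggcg
Iars, chr13:49682126-49682155, plus strand: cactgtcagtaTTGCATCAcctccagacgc
Tars, chr15:11399655-11399684, minus strand: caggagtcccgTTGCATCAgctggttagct
Yars, chr4:129189895-129189924, plus strand: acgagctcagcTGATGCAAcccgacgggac
The match shown lay before the start site in Gars and Tars and just after it in Iars and Yars. In Yars the element runs on the strand of the gene and in the other 3 windows on the opposite strand. The log2 differences of these 5 genes ran from -1.64 for Tars to -0.71 for Aars with a median of -1.32, and those of the 8 matched cytosolic genes without the element from -1.34 to 0.64 with a median of -0.51. The median of the 13 matched mitochondrial genes, all without the element, was -0.95. No difference between genes with and without the element was tested. No promoter was in the table for Cars, Hars, Lars, Nars, Rars, Vars, Wars, Hars2 and Pars2, of which 7 were lower.

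Other genes of transfer RNA charging and supply were read from the same test. Mitochondria make glutaminyl-tRNA without a synthetase of its own, by an amidotransferase that converts the product of Ears2. All 3 of its subunit genes were lower in c-kitCre cultures. Qrsl1 averaged 95.2 ± 32.0 scaled reads in c-kitCre cultures and 662 ± 9.61 in wild-type cultures (SD, n = 3 each), a log2 difference of -2.86 (limma, adjusted p = 0.0009). Gatc averaged 232 ± 68.2 in c-kitCre cultures and 1032 ± 42.0 in wild-type cultures, a log2 difference of -2.20 (adjusted p = 0.0013). Gatb, listed under its older symbol Pet112l, averaged 210 ± 26.5 in c-kitCre cultures and 559 ± 43.2 in wild-type cultures, a log2 difference of -1.42 (adjusted p = 0.0014). In the list of 10 genes for indirect charging and correction of mischarging, 4 were lower, the fourth being Aarsd1, an alanyl-tRNA editing factor, with a log2 difference of -0.71. The share lower in this list, 40%, is not far above the 29.2% among all genes tested that averaged 50 scaled reads or more. Mtfmt, which formylates the mitochondrial initiator transfer RNA and is named after its value was seen, was higher by 0.51 (adjusted p = 0.019), and no gene of the list was called higher without wild-type culture 2 or 3 or c-kitCre culture 1, or with median centring over all genes.

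Of 22 genes for transfer RNA maturation and export, 15 were lower (68.2%) and 1 higher, with a median log2 difference of -1.16. Leaving out single cultures gave 11 to 15 lower genes. Of all genes tested that averaged 50 scaled reads or more, 29.2% were lower. Trnt1, which adds the CCA end, averaged 789 ± 64.8 scaled reads in c-kitCre cultures and 3094 ± 137 in wild-type cultures, a log2 difference of -1.97 (adjusted p = 0.00014). Pop1, a subunit of RNase P, averaged 377 ± 89.7 in c-kitCre cultures and 2702 ± 381 in wild-type cultures, a log2 difference of -2.86 (adjusted p = 0.00033). Trmt10c, a subunit of the mitochondrial RNase P, averaged 432 ± 56.4 in c-kitCre cultures and 1612 ± 165 in wild-type cultures, a log2 difference of -1.90 (adjusted p = 0.00036). Rpp25, another RNase P subunit, was the gene that was higher, at 53.0 ± 12.5 in c-kitCre cultures against 1.37 ± 1.22 in wild-type cultures, which is under the floor of the normalized values. Of 19 genes for transcription by RNA polymerase III, which makes transfer RNA, 13 were lower (68.4%) and 2 higher, with a median of -0.89. Leaving out single cultures gave 10 to 14 lower genes in this list. Polr3f averaged 867 ± 12.1 scaled reads in c-kitCre cultures and 2285 ± 34.6 in wild-type cultures, a log2 difference of -1.40 (adjusted p = 0.00022). Polr3c, another subunit of the polymerase, had a log2 difference of -0.89. Gtf3c3, a subunit of the factor TFIIIC, was higher, at 1775 ± 156 in c-kitCre cultures and 714 ± 59.9 in wild-type cultures, a log2 difference of 1.31 (adjusted p = 0.00069).

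Of 18 cytosolic initiation and elongation factor genes, 11 were lower (61.1%) and 7 did not pass, with a median log2 difference of -0.78. Of all genes averaging 1000 scaled reads or more, 32.6% were lower. Leaving out single cultures gave 9 to 11 lower genes in this list. The lowest p-values belonged to the initiation factor eIF2 and its exchange factor eIF2B. Eif2s2 averaged 6594 ± 501 scaled reads in c-kitCre cultures and 17301 ± 2105 in wild-type cultures, a log2 difference of -1.39 (limma, adjusted p = 0.001). Eif2s1 had a log2 difference of -1.13, Eif2b3 of -2.01 and Eif2b5 of -0.89, each lower in c-kitCre cultures. The elongation factor genes Eef1a1 and Eef2, named after their values were seen, did not pass and had higher values, with log2 differences of 0.77 (adjusted p = 0.38) and 0.93 (adjusted p = 0.076). Of 9 mitochondrial translation factor genes 3 were lower, with a median of -0.54. That share, 33.3%, is near the 29.2% among all genes tested that averaged 50 scaled reads or more. Gfm1, an elongation factor, averaged 1085 ± 135 scaled reads in c-kitCre cultures and 3005 ± 226 in wild-type cultures, a log2 difference of -1.47 (adjusted p = 0.00058). Tsfm had a log2 difference of -0.98 and Mtif2 of -0.56, and Gfm2, at -0.54, did not pass (adjusted p = 0.053). Without wild-type culture 2 or 3 or c-kitCre culture 1 only 1 of the 9 was called, and without c-kitCre culture 3 only 2.

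Of 33 genes listed for the amino acid response, 24 were lower (72.7%) and 2 higher, with a median log2 difference of -1.17. The 2 higher genes, named after their values were seen, were Vldlr at 1.10 and Eif2ak3 at 0.73 (limma, adjusted p = 0.0021 and 0.011). The log2 difference was above 0 in 5 of the 33. Leaving out single cultures gave 19 to 24 lower genes. Of genes averaging 50 scaled reads or more, 29.2% were lower. Beside genes of the programme that Atf4 drives when amino acids run short, the list holds Atf4 and the kinase genes Eif2ak1 to Eif2ak4. Its counts are therefore not those of Atf4 targets alone. Atf4 itself, named after its values were seen, had 11109, 12494 and 8841 scaled reads in c-kitCre cultures, against 41885, 34186 and 32522 in wild-type cultures. Its groups were far apart (log2 difference -1.75 ± 0.20, SE, limma, adjusted p = 0.0013). Chac1, a glutathione-degrading enzyme, averaged 229 ± 38.9 in c-kitCre cultures and 4609 ± 574 in wild-type cultures, a log2 difference of -4.34. Trib3, a pseudokinase that binds Atf4, averaged 778 ± 259 in c-kitCre cultures and 8039 ± 674 in wild-type cultures, a log2 difference of -3.42. Phgdh, the first enzyme of serine synthesis, averaged 6675 ± 806 in c-kitCre cultures and 24613 ± 2639 in wild-type cultures, a log2 difference of -1.88. Fgf21, a secreted hormone, averaged 3.95 ± 1.11 in c-kitCre cultures and 151 ± 10.9 in wild-type cultures, a log2 difference of -4.88 on the floored scale. The synthetases, with a median of -1.16, lay near the median of this list and of the list for transfer RNA maturation, and these values were read from the same 6 cultures.

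**Figure D5:**
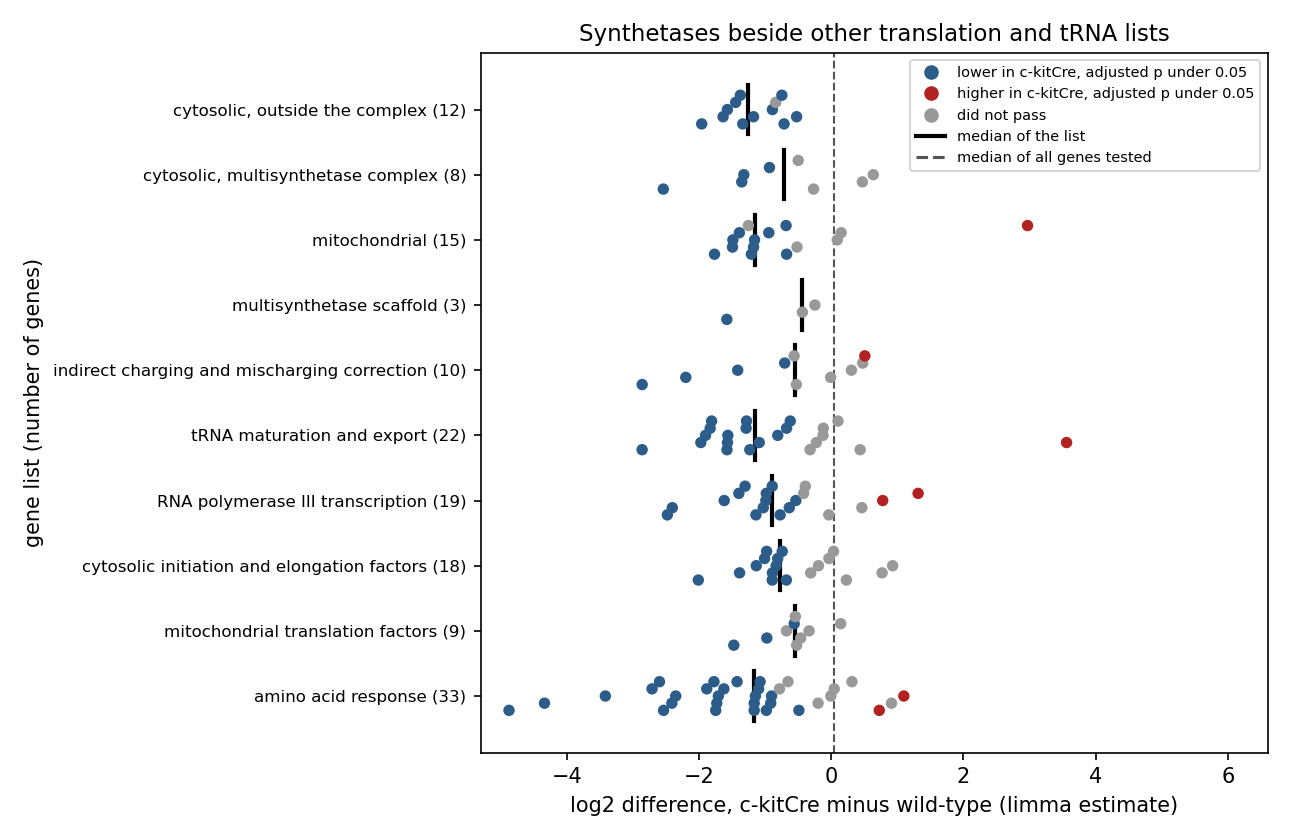
Log2 difference, c-kitCre minus wild-type, of the genes of the 3 synthetase groups and of 7 other lists (points, limma estimates, spread vertically for visibility); black bars are list medians and the dashed line is the median of all genes tested, 0.04. All list medians lie left of the dashed line, and the red points farthest right are Lars2 and Rpp25.

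The authors' deposited table of 4528 genes, which holds folds of at least 2.5 in size, lists 14 of the 35 members. Its sign is positive where wild-type is higher, which is the opposite of the differences above. In the authors' deposited table the sign is positive for 13 members, led by Lars at 5.82, Wars at 3.89, Hars2 at 3.40 and Tars at 3.11. In the authors' deposited table Lars2 is the 1 member with a negative sign, at -7.83.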

How the data were processed

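Per the labels' protocols, RNA with an integrity number of 8 or more was depleted of ribosomal RNA and 1 µg was made into libraries read as 100 bp pairs. The submitters' processing notes name DESeq, with no version, and build mm10. The aligner, the annotation, the strand setting and the treatment of reads that fit several places were not given in the sources used here. The raw column of each culture is a deposited signal, not whole numbers, that merges 2 libraries in a way not known, so no count test was run and no counting interval is given. The deposited normalized values are log2, equal to the log2 of raw values multiplied by each culture's factor (0.825 to 1.52) minus a constant per gene (off by at most 2.04e-06 in the 8369 genes whose raw values exceed 200), with low values raised towards a floor of 4.41 scaled reads. The authors' deposited fold is a signed score. The constant was added back and limma 3.58.1 (R 4.3.3; eBayes with trend, two-sided, 3 cultures against 3, no covariates) was run on genes averaging 1 scaled read or more that were not at the floor in all cultures, with Benjamini-Hochberg adjustment over 24151 genes. Percentages of wild-type for single genes are 2 to the power of the log2 difference, and those of sums are ratios of means. Coordinates and exon lengths come from GENCODE M21 (32874 of 34174 IDs matched), and near-identical stretches were sought with blastn 2.17.0 (at least 95% over at least 50 bases). Other steps used Python 3.11.15 with scipy 1.17.1, numpy 2.4.6, matplotlib 3.10.9 and pandas 2.3.3. All 35 members are named, and of each other list up to 4 genes with the smallest p and every scaffold gene; a gene that falls under this rule and a sequence are not reported here. The members and lists were chosen with earlier results of these data known. Alternatives were other filters, pseudocounts of 0.1, 1 and 5, median centrings, scaling to summed raw values, quantile normalization, limma without trend or robust, a block for culture number, and leaving out each culture.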

Additional observations from a re-analysis of the deposited data

How the results depend on the processing

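Of the 25 members called lower, 17 stayed called in all 18 alternatives that had been planned, and none of the 25 changed sign in any of them. Leaving out single cultures gave 17 to 25 lower and 0 to 3 higher members, 11 to 15 lower cytosolic and 6 to 11 lower mitochondrial members, medians of -1.158 to -1.001 for cytosolic and -1.204 to -0.905 for mitochondrial members, and 3189 to 4886 lower and 2496 to 4175 higher genes in all. Higher members numbered 0 with no filter, 2 with a filter at 10 scaled reads, and 3 with median centring over genes averaging 50 or more, with scaling to the summed raw values and with quantile normalization (Kars, Qars and Lars2). Leaving out Lars2, which was chosen after seeing the data, gave 0. Median centring over all genes gave 8605 lower genes in all and medians of -1.41 (cytosolic) and -1.52 (mitochondrial). Centring over genes with a mean of at least 50 gave -0.84 and -0.95, and quantile normalization gave -0.96 for mitochondrial members. These centrings moved the median of all genes to -0.31 and 0.26. Relative to the median of all genes the mitochondrial median was -1.21 as reported, -0.92 with quantile normalization and -0.91 without c-kitCre culture 2; the centrings, which shift every gene alike, leave it as it was. Cars2 changed sign with centring over all genes (-0.26) and without c-kitCre culture 1 (single cultures left out gave -0.076 to 0.27), and Nars2 with centring over all genes (-0.20). The cause of these shifts was not tested.

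Culture numbers do not pair the groups by design, and deviations of same-numbered cultures correlated at 0.12, -0.01 and 0.19. With the culture number as a block 24 members were lower and 1 higher, Aars losing its call (adjusted p = 0.0634), 0 of 10 genes for indirect charging were higher, and not every culture correlated best with its own number. Depth is known per culture only as a merged signal, so genes with low levels, such as Pars2 and Ears2, carry a counting error that could not be separated from the spread between cultures.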

Other observations

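Mars2, for the mitochondrial methionyl enzyme, was outside the list of 35. It had 149, 171 and 163 scaled reads in c-kitCre cultures, against 603, 632 and 617 in wild-type cultures. The groups were tight and did not overlap, with a log2 difference of -1.94 (limma, adjusted p = 0.00029).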
